A study of Homo sapiens with 12 samples.

Results

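Transcript levels were compared between HT1080 cells labelled as carrying ING2-6K/Rmt with 100 uM etoposide and those labelled as carrying ING2-WT with the DMSO vehicle, 3 Illumina bead arrays each, 6 of the 12 arrays of the series. Of the 4 groups of 3 arrays, these 2 were chosen by their measured levels of mitotic transcripts, which were high, and replicates 1 and 2 were singled out by the brightness of the ING2 probes. HT1080 is an established human fibrosarcoma line. Both populations stably expressed full-length, epitope-tagged ING2 introduced by a retrovirus, whose endogenous counterpart is depleted in such cells per the study. ING2-6K/Rmt carries changed basic residues that abolish its binding of the lipid phosphatidylinositol-5-phosphate and leave that of methylated histone H3 in place. The labels give 16 h for both etoposide and DMSO, although the paper states a different duration for the arrays. The other 6 arrays came from ING2-6K/Rmt cells with DMSO and ING2-WT cells with etoposide. Construct and treatment both differ between the 2 groups compared, so what belongs to the mutant and what to etoposide cannot be told apart within this comparison. The paper calls its expression replicates biological, the labels give nothing on separate cultures, and each p-value covers only the spread among these arrays.

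ING2 is a chromatin reader that recruits a SIN3 and histone deacetylase complex to promoters marked by methylated histone H3. Etoposide blocks topoisomerase II after it has cut DNA, and the breaks usually halt the cell cycle, so that transcripts of mitosis fall. Sparse oxygen and dense growth raise transcripts of glycolysis, driven by hypoxia-inducible factors, and fibrosarcoma cells make and remodel a collagen-rich matrix through secreted proteases and integrins.

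The values that chose the arrays are given first, as a description. Over the 72 genes of mitosis and G2/M measured, the median log2 intensity was 9.30, 9.13 and 9.24 on ING2-6K/Rmt etoposide arrays 1, 2 and 3, and 9.62, 9.75 and 9.18 on ING2-WT DMSO arrays 1, 2 and 3. It was 5.41 to 5.85 with ING2-6K/Rmt and DMSO and 6.31 to 6.60 with ING2-WT and etoposide. All 6 chosen arrays thus lay above the other 6, and both groups overlapped. The DMSO arrays of the mutant had the lowest levels of mitotic transcripts although their label names no drug. Whether titles were exchanged between arrays cannot be settled from the files, so construct and treatment are given throughout as labelled.

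Both ING2 probes were bright on 2 of the 12 arrays. The first read 21470, 27160 and 122 on ING2-6K/Rmt etoposide arrays 1 to 3 and 413, 451 and 149 on ING2-WT DMSO arrays 1 to 3. The second read 12350, 10510 and 217 against 572, 646 and 178. Array 1 over array 1 the ratios were 51.9 and 21.6, array 2 over array 2 they were 60.2 and 16.3, and for the arrays numbered 3 they were 0.822 and 1.22. Over the 10 arrays other than the bright pair the probes read 113 to 451 and 141 to 646. These include the arrays labelled ING2-WT, whose cells are said to carry introduced ING2 too. Of these 10 arrays, those numbered 3 were the lowest in every group, at 113 to 192 and 141 to 237. The rest read 334 to 451 and 453 to 646. Whether these probes lie in the introduced sequence was not tested. Array 3 of the group labelled ING2-6K/Rmt with etoposide therefore did not show the ING2 signal of its arrays 1 and 2, and results are given over all replicates and for replicates 1 and 2 alone.

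**Figure D1:**
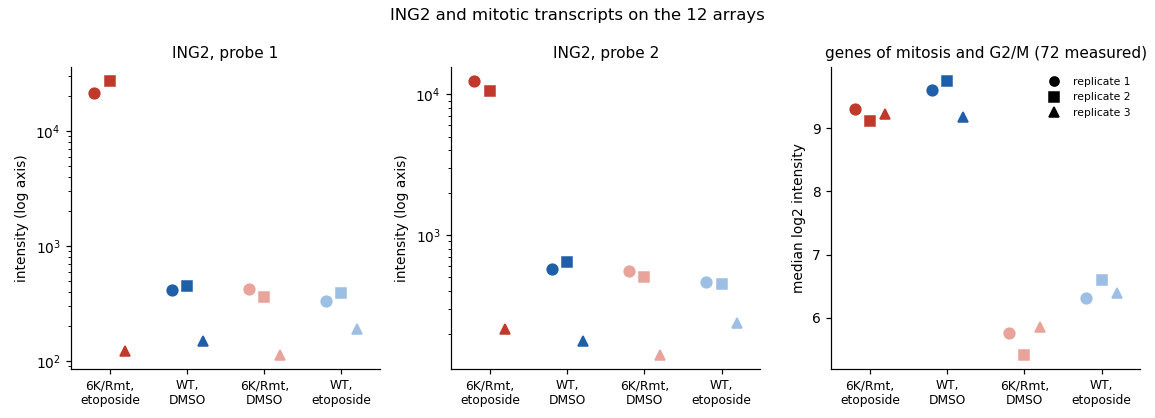
Intensity of both ING2 probes (log axis) and the median log2 intensity of 72 genes of mitosis and G2/M on each of the 12 arrays, by group, with a symbol for each replicate number. ING2 is at 10510 or more on 2 arrays and at 646 or less on the other 10, and the mitotic level is 9.13 or more on all 6 arrays compared and 6.60 or less on the rest.

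The deposited table held 48797 probes, of which 26.8% to 30.3% per array had an intensity of 64 or more. Log2 values were taken with a floor of 16, below which intensities have no order, and 11422 genes passed a filter on dim probes and were tested, each by its brightest probe. Mesenchymal transcripts were abundant: 18 of 20 mesenchymal markers were measured, with a summed intensity of 101900 to 106800 on the ING2-6K/Rmt etoposide arrays and 60510 to 100800 on the ING2-WT DMSO arrays. Of 18 epithelial markers 6 passed the filter, with sums of 1455 to 2016 and 829 to 1363, and of 20 blood cell markers 4 did, with sums of 267 to 417 and 204 to 261. MUC1, an epithelial mucin, read 1157, 974 and 573 on ING2-6K/Rmt etoposide arrays 1 to 3. On ING2-WT DMSO arrays 1 to 3 it read 88.5, 81.5 and 457. MUC1 had the highest log2 difference of the 6 epithelial markers in replicates 1 and 2, at 3.64. The markers went in both directions, down to -1.13, and their part in the results below was not tested. In RNA from whole cultures, fewer cells of a type and less RNA per cell cannot be told apart.

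Over all 3 replicates no gene was called. limma's moderated test gave 0 of 11422 genes at an adjusted p under 0.05 (percent called 0), with 541 genes at an unadjusted p under 0.05, which is 4.74% of those tested, and a smallest adjusted p of 0.889. An unmoderated model also gave 0, with 540 genes at an unadjusted p under 0.05. The median standard error of a log2 difference was 0.43. The 3 against 3 arrays did not overlap for 893 genes with higher values in ING2-6K/Rmt etoposide (7.82%) and 401 with lower values (3.51%), together 11.3% of all genes. Left without ING2-WT DMSO array 3, the test called 26 genes, 23 higher and 3 lower.

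The genes with the smallest p over all replicates were led by MMP9, a secreted gelatinase. It read 2266, 1522 and 220 on ING2-6K/Rmt etoposide arrays 1 to 3 and 8.87, -10.0 and 122.6 on ING2-WT DMSO arrays 1 to 3, so the groups did not overlap although array 3 of each was close to the other. The log2 difference was 4.85 (SE 0.91, adjusted p = 0.889). ABTB2, a BTB domain protein, read 82.6, 81.8 and 76.4 against 25.5, 30.3 and 35.7, a difference of 1.41 (SE 0.27) that all 3 pairs shared. H2BC21, a histone H2B gene, read 432, 397 and 226 against 179, 137.7 and 115, a difference of 1.26 (SE 0.31). ATG16L2, a relative of an autophagy factor, differed by 1.53, and CFAP91, a protein of cilia, by -1.57. None of these 5 passed after adjustment.

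For replicates 1 and 2 alone the picture was different. limma called, at an adjusted p under 0.05, 3471 of 11422 genes (30.4%), 2195 higher (19.2%) and 1276 lower (11.2%) in ING2-6K/Rmt etoposide, with a median standard error of 0.20. The higher genes had a median log2 difference of 1.11, and 248 of them reached 2. The lower genes had a median of -0.82, and 12 reached -2. The largest changes were therefore almost all upward. The balance of directions depended on the scaling, with 2195 higher and 1276 lower in the deposited values (63.2% higher), 1691 and 1881 after quantile normalisation (47.3%), 1575 and 1268 after scaling to the 75th percentile (55.4%) and 1876 and 1660 after cyclic loess (53.1%). The median over all genes was 0.09 in the deposited values and -0.04 after quantile normalisation. Calls were also more frequent among bright genes, with 9.45% of the dimmest 2856 genes called higher and 26.5% of the brightest 2856.

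Genes of glycolysis and of the response to low oxygen were mostly higher in these arrays. Of 37 measured, 28 were higher (75.7%, against 19.2% of all genes) and 0 lower (all genes 11.2%) in replicates 1 and 2. Their median difference was 1.16, against 0.09 for all genes tested. CA9, a carbonic anhydrase that acidifies the space outside hypoxic cells, read 5892 and 3303 on ING2-6K/Rmt etoposide arrays 1 and 2, and 16.9 and 29.6 on ING2-WT DMSO arrays 1 and 2. That is a log2 difference of 7.62 (SE 0.40, adjusted p = 0.000803), the largest of all called genes with the floor of 16. This rank depends on the floor, since MMP9 lay under it on ING2-WT DMSO arrays 1 and 2 and has only a lower bound. For CA9 the arrays numbered 3 read 1490 and 1251. ALDOC, an aldolase of glycolysis, read 6419 and 4246 against 310 and 248 (difference 4.24, SE 0.27). ADM, a vasodilator peptide, read 196 and 178 against 6.02 and 6.99, both under the floor of 16, and was at least 11.7-fold higher. NDRG1, a stress-responsive gene, read 5092 and 4841 against 552 and 405 (difference 3.39, SE 0.22).

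Other enzymes of glycolysis were also higher. ENO2, the neuronal enolase, differed by 2.89, PFKL, a phosphofructokinase, by 1.70, PGK1, which makes ATP in the pathway, by 1.38, ALDOA by 1.05 and LDHA, which makes lactate, by 0.87, all called. GAPDH, often used as a reference transcript, read 23790 and 22730 against 14050 and 16190 (difference 0.62, SE 0.14, adjusted p = 0.0180), and 13010 against 14080 on the arrays numbered 3. Its call was lost under 8 of 22 alternatives and that of LDHA under 3. The glucose importer SLC2A1 differed by 2.04, the lactate exporter SLC16A3 by 1.44, the growth factor VEGFA by 2.12 and the mitophagy receptors BNIP3 and BNIP3L by 1.57 and 1.46. The phosphofructokinase PFKM was at -0.06 and TPI1 at 0.40, neither called.

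Promoters of 4 higher members of this group are shown, because hypoxia-inducible factors bind a short core that begins with A or G, of which only the form ACGTG was searched. Each line gives the 250 bases before the start of the gene in RefSeq's GRCh38.p14, read along the gene's strand. Capitals mark ACGTG, which reads CACGT when it lies on the other strand, and overlapping matches run together. The windows are chr9:35673678-35673927 (plus strand) for CA9, chr17:28576896-28577145 (minus) for ALDOC, chr11:10304823-10305072 (plus) for ADM and chr5:132227092-132227341 (minus) for P4HA2.
CA9: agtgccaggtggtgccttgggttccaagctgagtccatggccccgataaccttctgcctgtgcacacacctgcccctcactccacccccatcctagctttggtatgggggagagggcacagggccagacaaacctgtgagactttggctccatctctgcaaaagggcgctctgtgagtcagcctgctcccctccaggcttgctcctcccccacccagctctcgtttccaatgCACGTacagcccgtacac
ALDOC: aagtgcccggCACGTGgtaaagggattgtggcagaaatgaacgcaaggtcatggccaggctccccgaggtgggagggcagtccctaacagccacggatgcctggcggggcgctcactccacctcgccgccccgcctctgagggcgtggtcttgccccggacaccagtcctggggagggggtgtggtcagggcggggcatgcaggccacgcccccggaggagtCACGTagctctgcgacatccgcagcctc
ADM: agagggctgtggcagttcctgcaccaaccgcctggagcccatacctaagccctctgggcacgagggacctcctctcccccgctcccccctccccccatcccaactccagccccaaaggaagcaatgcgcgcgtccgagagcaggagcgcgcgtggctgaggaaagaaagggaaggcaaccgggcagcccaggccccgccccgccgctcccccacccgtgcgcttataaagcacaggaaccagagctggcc
P4HA2: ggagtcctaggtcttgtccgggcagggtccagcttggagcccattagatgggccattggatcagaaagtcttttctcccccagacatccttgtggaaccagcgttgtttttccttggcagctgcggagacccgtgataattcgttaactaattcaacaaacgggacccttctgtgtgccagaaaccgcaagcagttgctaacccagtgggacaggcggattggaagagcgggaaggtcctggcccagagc
The CA9 window held 1 match, close to the start, and that of ALDOC held 3, and those of ADM and P4HA2 held 0. On either strand the letters were present in 15 of 33 hypoxia and glycolysis genes with a promoter in the table (45.5%), in 12 of the 24 of them called higher, in 7 of 35 collagen and matrix genes and in 18.7% of all 27305 promoters of the table. Of the genes tested 8362 of 11422 had a promoter in the table, and 2009 of these 8362 held the letters (24%). Both lists were drawn from the genes tested. Against that share the hypoxia and glycolysis genes lay higher and the collagen and matrix genes lower. Whether these shares differ beyond their spread was not tested. A match is a description of the letters and not a site of binding.

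Genes of the extracellular matrix formed the group with the largest median. Of 41 collagen and matrix glycoprotein genes measured, 33 were higher (80.5%, against 19.2% of all genes) and 0 lower in replicates 1 and 2. The median difference was 2.07 (1.94 after quantile normalisation). COL5A1, a chain of fibrillar collagen V, read 4074 and 4103 against 347 and 224 (difference 3.88, SE 0.27, adjusted p = 0.000857). COL4A2, a chain of basement membrane collagen IV, read 2197 and 2341 against 265 and 296 (3.02, SE 0.15). Both were high on ING2-WT DMSO array 3 too, at 2677 and 1649.

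Collagen-modifying enzymes moved with the chains. The prolyl hydroxylase subunit P4HA2, which is also on the hypoxia list, read 6743 and 4945 against 649 and 456 (difference 3.41), its relative P4HA1 differed by 2.89, the lysyl hydroxylases PLOD1 and PLOD2 by 2.79 and 1.84, and the cross-linking oxidase LOX by 2.06. The proteoglycan VCAN differed by 3.40, the laminin chains LAMA4 and LAMC1 by 2.76 and 1.89, thrombospondin THBS1 by 2.09 and LTBP3, which tethers latent TGF-beta to the matrix, by 3.98. Among the 8 members not called were COL1A2 at 0.08, COL12A1 at 0.81 and COL5A2, dim on these arrays, at -0.28.

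Of 26 matrix proteases and inhibitors, 21 were higher (80.8%, against 19.2% of all genes) and 0 lower. Their median was 1.36 (1.18 after quantile normalisation). MMP9 was at least 116-fold higher in replicates 1 and 2, since both ING2-WT DMSO arrays lay under the floor (adjusted p = 0.000143). The membrane protease MMP14 differed by 2.56, the gelatinase MMP2 by 1.97, the plasminogen activators PLAT and PLAU by 2.75 and 1.18, and the inhibitor TIMP1 by 1.52. The collagenase MMP1 was at -0.24 and the stromelysin MMP3 at 0.65, neither called.

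Of 29 integrin and adhesion genes, 21 were higher (72.4%, against 19.2% of all genes) and 0 lower, with a median of 1.12. ITGA5, the fibronectin receptor chain, read 7691 and 6724 against 1526 and 1396 (difference 2.30, SE 0.14, adjusted p = 0.000803), and 9182 against 7614 on the arrays numbered 3. ITGA3, a laminin receptor chain, differed by 2.38, the collagen receptor chains ITGA1 and ITGA2 by 3.53 and 2.55, and ITGB1, the partner of most of these, by 1.12. ITGB3, a vitronectin receptor chain, differed by 1.90 and lost its call under 6 of 21 alternatives. L1CAM was at -0.12 and PXN, a focal adhesion scaffold, at 0.06, neither called. Of the 18 mesenchymal markers, several of which are on these lists too, 12 were higher (66.7%, against 19.2% of all genes) and 0 lower. Their median was 0.86. After quantile normalisation 8 were higher and 1 lower, with a median of 0.39. In the deposited values the intermediate filament VIM was at 0.90.

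**Figure D2:**
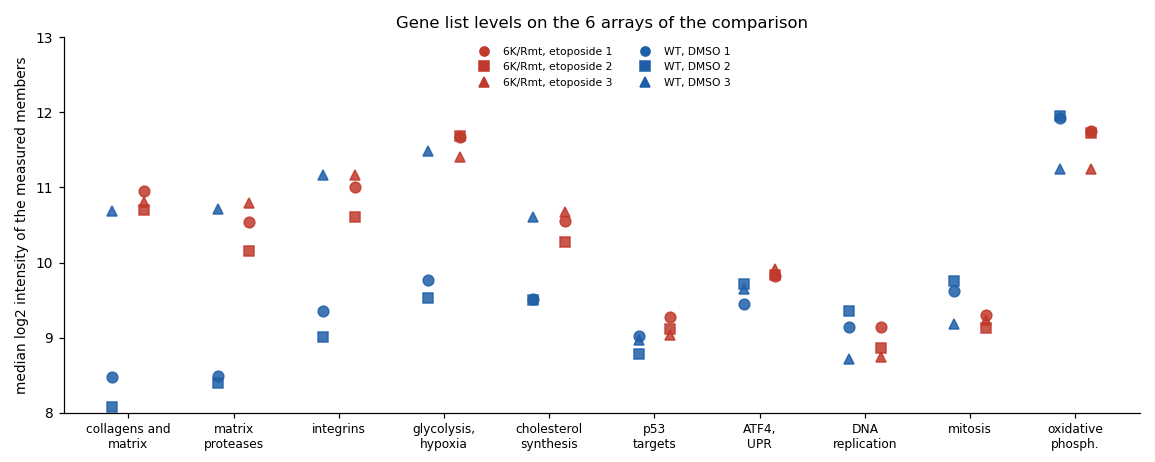
Median log2 intensity of the measured members of 10 gene lists on each of the 6 arrays, with ING2-6K/Rmt etoposide in red, ING2-WT DMSO in blue and a symbol for each replicate number. For collagens, proteases, integrins, glycolysis and hypoxia, and cholesterol synthesis, ING2-WT DMSO arrays 1 and 2 lie below the other 4 arrays, and ING2-WT DMSO array 3 lies with the ING2-6K/Rmt etoposide arrays.

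Cholesterol synthesis and uptake followed the same arrays. Of 24 genes, 16 were higher (66.7%, against 19.2% of all genes) and 0 lower, with a median of 0.88. DHCR7, which makes cholesterol in the last step of its pathway, read 3220 and 3318 against 719 and 750 (difference 2.15, SE 0.15, adjusted p = 0.000813), and 3633 against 3896 on the arrays numbered 3. LSS, which closes the sterol ring, differed by 1.43. FDFT1 was at -0.00 and IDI1 at -0.11, neither called.

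Genes of the unfolded protein response and of ATF4 went in both directions, with a median of 0.31. Of 33, 10 were higher (30.3%, against 19.2% of all genes) and 7 lower (all genes 11.2%). The higher members held chaperones of the endoplasmic reticulum: HSPA5 differed by 1.83, PDIA4 by 1.63, CALR by 1.36 and HSP90B1 by 1.30. STC2, a secreted glycoprotein, read 4572 and 5514 against 698 and 839 (difference 2.71, SE 0.18). The lower members held enzymes that make amino acids. PSAT1, of serine synthesis, read 659 and 436 against 1745 and 1935 (difference -1.78, SE 0.21, adjusted p = 0.00323), ASNS, which makes asparagine, differed by -1.64, PHGDH by -0.61, and MTHFD2, of mitochondrial folate metabolism, by -0.99. The cystine importer SLC7A11 differed by -1.84.

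Inflammatory genes downstream of NF-kB had 8 higher (32%, against 19.2% of all genes) and 1 lower of 25, with a median of 0.69. PTGS2, the inducible cyclooxygenase, read 2560 and 2245 against 217 and 91.0 (difference 4.09, SE 0.39, adjusted p = 0.00175), and 1727 against 1617 on the arrays numbered 3. IL1B, an inflammatory cytokine, differed by 2.32 and CXCL8, a neutrophil chemokine, by 1.15. Of 45 p53 targets, 17 were higher (37.8%, against 19.2% of all genes) and 2 lower, with a median of 0.38. CDKN1A, the cyclin-dependent kinase inhibitor p21, read 5651 and 6574 against 3938 and 3566, and 3109 against 2969 on the arrays numbered 3. Its difference of 0.70 (SE 0.15, adjusted p = 0.0167) lost its call under 6 of 22 alternatives, and a second, dimmer CDKN1A probe was at -0.57, the opposite direction. MDM2, which marks p53 for degradation, was at 0.56 and not called (adjusted p = 0.0678), while TP53INP1 differed by 2.05, GDF15 by 1.56 and the repair factor DDB2 by 1.52.

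Other signalling groups also had more higher than lower members, as did all genes tested (19.2% higher and 11.2% lower). The shares higher were 31% of immediate early genes, 30.8% of YAP and TGF-beta targets and 38.5% of contractile genes. After quantile normalisation their higher and lower counts were 5 and 2, 6 and 2, and 6 and 3. Of 29 immediate early genes 9 were higher and 2 lower, led by FOS, which read 127 and 212 against 15.7 and -0.09, at least 10.2-fold higher, while both arrays numbered 3 lay under the floor. Of 43 interferon-stimulated genes 9 were higher and 1 lower, and of 26 targets of YAP and TGF-beta 8 and 2, with medians of 0.20 and 0.49. The share of interferon genes that were higher, 20.9%, lay near the 19.2% of all genes. Of 26 contractile genes 10 were higher and 2 lower, with ACTA2, smooth muscle actin, at 0.92 and its companion TAGLN at -0.84. Among 16 histone genes 3 were higher (18.8%, near the share of all genes) and 1 lower, with a median of -0.14, and the 3 were H2AC18 at 1.47, H2BC21 at 1.40 and H2AC20 at 1.29.

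Genes of replication had more lower than higher members. Of 58 genes of DNA replication and G1/S, 13 were lower and 3 higher (all genes 11.2% and 19.2%), with a median of -0.38. RRM2, a subunit of the reductase that makes deoxynucleotides, read 222 and 224 against 496 and 730 (difference -1.43, SE 0.22, adjusted p = 0.00725), GMNN, the licensing inhibitor geminin, differed by -1.19, the primase subunit PRIM1 by -1.17 and TYMS, which makes thymidylate, by -0.89. The higher ones were the polymerase subunit POLD1 at 0.75, the ligase LIG1 at 0.64 and the origin subunit ORC6 at 1.03, whose second probe was at -0.51. The median of the 72 mitotic genes, which chose the groups, was -0.53 in replicates 1 and 2 and 0.02 for the arrays numbered 3. Within that description the spindle checkpoint gene MAD2L1 was at -1.54, cyclin CCNA2 at -1.35 and TOP2A, the target of etoposide, at 0.06, with 2437 and 2082 against 1947 and 2408.

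Of 55 genes of oxidative phosphorylation 11 were lower and 3 higher (all genes 11.2% and 19.2%), with a median of -0.13. The lower members included the subunits NDUFB6 at -0.80, UQCRB at -0.87 and ATP5MC3 at -1.38, and the higher ones included the succinate dehydrogenase subunit SDHA at 0.90. Of 24 heat shock chaperones 5 were lower and 0 higher, with HSPE1 at -0.75. After quantile normalisation the lower members were 22 of oxidative phosphorylation and 10 of the chaperones. Of 26 NRF2 antioxidant genes 7 were lower and 5 higher (19.2%, the share of all genes). They included the quinone reductase NQO1 at -0.79, the glutathione enzyme subunit GCLM at -1.13 (its second probe at 0.51) and the drug exporter ABCC3 at 2.87. Of 7 metallothionein genes and their regulators 3 were lower and 2 higher: the metal-binding MT1E read 2463 and 1900 against 5106 and 5657 (difference -1.31), MT1G and MT1A differed by -1.32 (a call lost under 5 of 22 alternatives) and -0.62, and the zinc exporter SLC30A1 and the regulator MTF1 by 0.99 and 1.20. Splicing factors had 6 higher (17.1%, near the 19.2% of all genes) and 2 lower of 35, and after quantile normalisation 4 and 9. Proteasome subunits had 1 higher (3.23%) and 2 lower of 31, and after quantile normalisation 1 and 12. The cytosolic ribosomal proteins had 9 higher and 8 lower of 74, and after quantile normalisation 1 higher and 15 lower, their median going from 0.21 to -0.26.

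The genes with the largest falls were mostly dim. KRTAP2-1, a keratin-associated protein, read 29.1 and 12.2 against 146 and 364 (difference -3.42, SE 0.54, adjusted p = 0.00745), and LPAR1, a receptor for lysophosphatidic acid, 44.4 and 13.6 against 170 and 278 (-3.02, SE 0.49). BATF3, a leucine zipper transcription factor, read 43.3 and 27.2 against 216 and 238 (-2.72, SE 0.31) and 47.5 against 52.1 on the arrays numbered 3. SLC10A4, a transporter-like protein, lay under the floor on both ING2-6K/Rmt arrays and was at least 5.87-fold lower, and the transcription factor SOX21 likewise at least 5.56-fold lower. Each of LPAR1, SLC10A4 and SOX21 lost its call under 1 alternative.

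**Figure D3:**
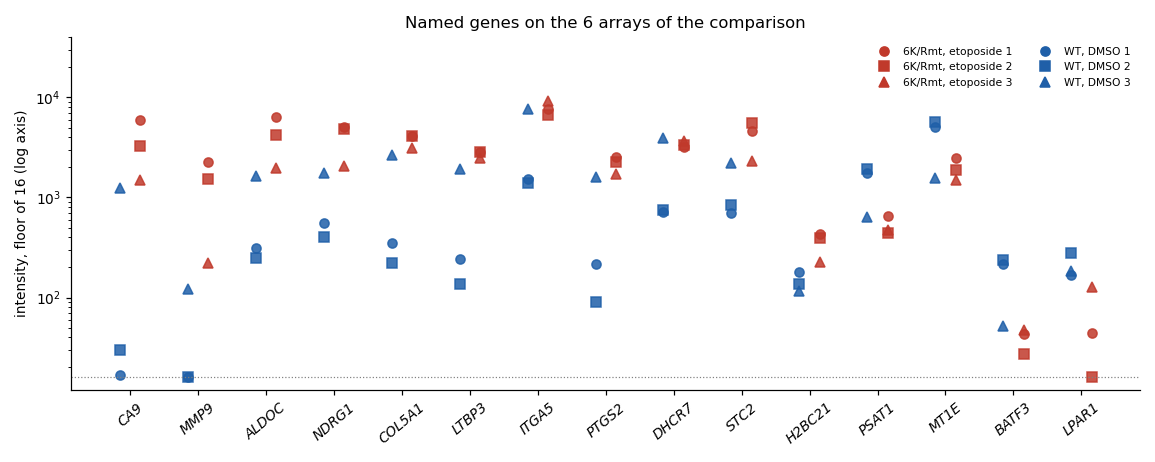
Intensity of 15 named genes (log axis, floor of 16 dotted) on the 6 arrays, with ING2-6K/Rmt etoposide in red, ING2-WT DMSO in blue and a symbol for each replicate number. From CA9 to H2BC21 the ING2-WT DMSO arrays 1 and 2 are below the ING2-6K/Rmt etoposide arrays, from PSAT1 to LPAR1 they are above, and for most of these genes the triangles of replicate 3 lie close together.

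Genes that the study tied to ING2 went in both directions. Of 190 measured genes whose promoters bound ING2 after etoposide in a separate promoter assay of the study, 25 were higher (13.2%, against 19.2% of all genes) and 24 lower (all genes 11.2%), and their median was -0.05. JARID2, a partner of the Polycomb complex, differed by 1.90, and CMSS1, a ribosome assembly factor, by -1.05. DKC1, a pseudouridine synthase, read 2133 and 1946 against 2605 and 3187 (difference -0.50, SE 0.15, adjusted p = 0.0493), a call lost under 16 of 22 alternatives. Not called were SKP2, of a ubiquitin ligase, at -0.45 (95% interval -0.95 to 0.04), CIP2A, an inhibitor of a phosphatase, at -0.36 (-0.86 to 0.13), UBE2N, a ubiquitin-conjugating enzyme, at -0.44 (-0.88 to -0.00, adjusted p = 0.112), and PCGF2, of Polycomb, at 0.17 (-0.17 to 0.52). AURKB, a mitotic kinase, read 648 and 770 against 1054 and 1190, and 578 against 580 on the arrays numbered 3.

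Of 22 genes of the SIN3 and histone deacetylase complex and the ING family, 3 were higher and 1 was lower apart from ING2. ING2 itself chose these replicates, so its call is no result. The 18.2% higher of this list counts ING2, and even so is not above the 19.2% of all genes. The higher ones were the glycosyltransferase OGT at 1.36, ING4 at 1.29 and PHF12 at 0.70, and the lower one was BRMS1L at -1.11. Core subunits were not called, with SIN3A at -0.16, SAP30 at -0.20 and HDAC1 at 0.18, a value that was -0.01 after quantile normalisation. Among 24 kinases and phosphatases of phosphoinositides 3 were higher (12.5%, below the 19.2% of all genes) and 1 lower (all genes 11.2%). After quantile normalisation 1 was higher and 2 were lower. In the deposited values the 4 called were the phosphatases MTMR3 at 0.85, MTMR14 at 0.52 and MTMR2 at -0.86 and the kinase PI4KA at 0.70. MTMR3 lost its call under 4 of 22 alternatives. PIP4K2B, which consumes phosphatidylinositol-5-phosphate, read 2278 and 5850 against 1590 and 1811 and was not called (difference 1.10, adjusted p = 0.0791).

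The arrays numbered 3 did not carry these differences. ING2-WT DMSO array 3 correlated over 11422 genes with ING2-6K/Rmt etoposide array 3 at r = 0.977 and with ING2-6K/Rmt etoposide arrays 1 and 2 at 0.948 and 0.945, but with arrays 1 and 2 of its own group at 0.890 and 0.874. Arrays 1 and 2 of ING2-WT DMSO correlated with each other at 0.982, and those of ING2-6K/Rmt etoposide at 0.975. In the other groups too, array 3 was less like arrays 1 and 2 than those were like each other. Its values were 0.944 and 0.934 in ING2-6K/Rmt etoposide. In ING2-6K/Rmt DMSO they were 0.891 and 0.882, against 0.979 between arrays 1 and 2. In ING2-WT etoposide they were 0.782 and 0.781, against 0.970. These values run across genes, which are not independent replicates.

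In the pair numbered 3 the genes called higher in replicates 1 and 2 had a median difference of 0.05. Of these 2195 genes, 1280 (58.3%) had the same sign there, 13 reached 1 on the log2 scale in that direction and 28 reached 1 in the other. Of all genes tested, 4.68% reached 1 in that pair, 2.46% upward and 2.22% downward. The 1276 lower genes had a median of -0.01 there, with 668 (52.4%) of the same sign. On ING2-WT DMSO array 3 the higher genes lay 1.12 above the mean of ING2-WT DMSO arrays 1 and 2 in the median, a value coupled to their choice, since arrays 1 and 2 enter both. On ING2-6K/Rmt etoposide array 3 they lay at -0.01 against arrays 1 and 2 of that group.

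List by list, the collagen and matrix median was 10.95, 10.70 and 10.80 on ING2-6K/Rmt etoposide arrays 1 to 3 and 8.47, 8.08 and 10.69 on ING2-WT DMSO arrays 1 to 3. Over glycolysis and hypoxia it was 11.67, 11.69 and 11.41 against 9.76, 9.53 and 11.48. In both lists the 2 low arrays were ING2-WT DMSO 1 and 2, and the other 4 stood together. On ING2-6K/Rmt DMSO arrays 1 to 3 the collagen and matrix median was 9.20, 9.39 and 10.57. With ING2-WT and etoposide it was 8.37, 8.225 and 9.49, so array 3 was the highest there too. Over glycolysis and hypoxia array 3 was not the highest in these groups, with 10.66, 10.54 and 10.41, and 10.12, 9.97 and 10.09. In the pair numbered 3 the medians of the member differences were 0.16 for both of these lists, 0.14 for matrix proteases, 0.04 for integrins and -0.12 for cholesterol synthesis.

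**Figure D4:**
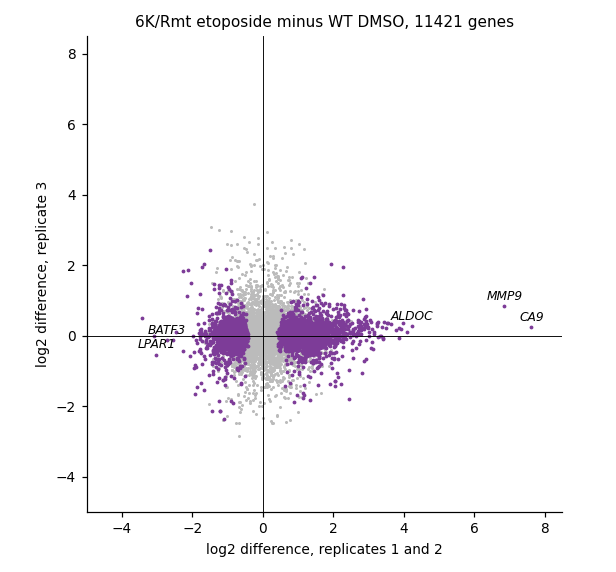
Log2 difference between ING2-6K/Rmt etoposide and ING2-WT DMSO for each gene tested other than ING2, for replicates 1 and 2 (horizontal) against the pair numbered 3 (vertical), with genes called in replicates 1 and 2 in purple. The purple genes spread from -3.42 to 7.62 horizontally and cluster around 0 vertically, with a median of 0.05 for those called higher.

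The other 6 arrays gave a second comparison of the 2 constructs, ING2-6K/Rmt DMSO against ING2-WT etoposide, at low levels of mitotic transcripts and with the drug label on the other side. There too 0 genes were called over all replicates, with 1128 at an unadjusted p under 0.05, and 2576 (22.6%) in replicates 1 and 2, 1288 in each direction (11.3% each). Of the 3471 genes called in the comparison described here, 1082 were called there as well, 31.2% of the first set and 42% of the second. Of these 1082, 663 had the same direction, 445 higher and 218 lower, and 419 the opposite. Across 11422 genes the differences of both comparisons, which share no array, correlated at r = 0.123.

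Matrix and hypoxia genes leaned the same way in both. Of 41 collagen and matrix genes 20 were higher and 1 lower in the second comparison (median 0.94), of 37 glycolysis and hypoxia genes 17 and 1 (0.71), and of 29 integrin genes 15 and 2 (0.75). CA9 differed by 5.51, MMP9 by 3.79 and ALDOC by 2.72 there, each called. Of the metallothionein list 6 of 7 were lower in the second comparison, with a median of -2.77 there and -0.29 in the first. For 2838 genes (24.8%) the difference itself was not the same in both comparisons of replicates 1 and 2, by limma's test of that contrast. Of these, 1827 (16%) had a larger value in the arrays described here and 1011 (8.85%) a smaller one. Over all replicates this held for 0 genes, with 543 at an unadjusted p under 0.05. Because the drug label changes sides, this contrast equals etoposide minus DMSO as labelled, summed over both constructs. It follows the drug label and does not test whether a construct difference varies with mitotic level. The mean of both comparisons, in which the drug label is balanced, gave 3148 genes (27.6%) in replicates 1 and 2, 1853 higher (16.2%) and 1295 lower (11.3%), and 0 over all replicates, with 1228 at an unadjusted p under 0.05.

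**Figure D5:**
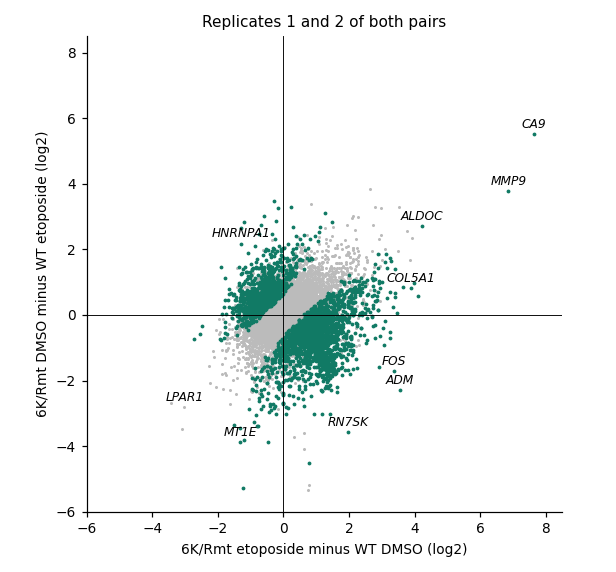
Log2 difference between the constructs for replicates 1 and 2 in the arrays with high mitotic transcripts (horizontal) and in those with low mitotic transcripts (vertical), 1 point a gene, with genes called for the difference between both comparisons in green. CA9 and MMP9 lie far to the upper right, and ADM and RN7SK lie right of and below 0.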

How the data were processed

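The 12 bead array samples were grouped by their titles into 4 groups of 3. The authors extracted RNA, hybridised Illumina BeadArrays and processed them in GeneSpring, and the deposited table holds intensities per probe on a linear scale, some below 0, whose exact background correction and normalisation are not given in the sources used here. Gene symbols came from the deposited symbol column and were updated through RefSeq names: 36102 probes had 1 symbol, 28539 of these matched, 4445 symbols were updated, and 50 cells that a spreadsheet had turned into dates were left unnamed. The table also holds 24 sample columns whose names match no label of this series, which were not used.

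The log2 scale used a floor of 16 and no further scaling, so differences of dim genes are understated. Probes with 64 or more on at least 3 arrays were kept (15399), 1 gene by its brightest probe (11422 genes). limma 3.58.1 in R 4.3.3 was fitted with a mean per group over all 12 arrays, or over the 8 numbered 1 and 2, with Benjamini-Hochberg adjustment over all genes and a threshold of 0.05. For 975 called genes another probe was kept, and 1048 of 1198 such probes had the same sign. Where both arrays of a group lay at the floor the fold is a lower bound. Named genes were the ING2 probes, the 10 largest called differences in each direction, 5 genes with the smallest p where too few were called, from every list the 3 members of smallest p over all replicates, 6 in each direction for the difference between both comparisons and genes the study names. Other list members were named after their values were seen, and some are not reported here. The arrays, members and lists were chosen with earlier results of these data known. The number of arrays limits the precision. The script was tested on simulated data.

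Arrays of both groups share replicate numbers. Deviations from the group means correlated between same-numbered arrays at 0.424, 0.273 and 0.503. ING2-WT DMSO array 2 with ING2-6K/Rmt etoposide array 1 gave 0.394, and array 1 with array 2 gave 0.149. Array 3 of either group correlated negatively with arrays 1 and 2 of the other. These values set array 3 apart and cannot show whether array 1 pairs with 1 and array 2 with 2. The numbers were taken as pairs only in an alternative with the replicate as a block. Other alternatives were the floor, the filter, the scaling, the probe rule, array weights, an unmoderated model and leaving out each array. Fits on the arrays of both groups alone were planned, and only the one that also held the replicate block was added after seeing the data.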

Additional observations from a re-analysis of the deposited data

Results flagged for a closer look

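Both comparisons, in arrays with high and with low mitotic transcripts, gave unlike differences for 2838 genes in replicates 1 and 2, by limma's test of that contrast. The contrast equals etoposide minus DMSO as labelled, summed over both constructs, so it follows the drug label. The 6 with the largest positive and the 6 with the largest negative values are named, and over all replicates none of the 12 was called (adjusted p = 0.929 for each).

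ADM, a vasodilator peptide, had a difference of differences of 5.85 on the log2 scale (SE 0.32): it was higher by 3.55 in ING2-6K/Rmt etoposide over ING2-WT DMSO and at -2.30 in ING2-6K/Rmt DMSO over ING2-WT etoposide. In both comparisons the etoposide arrays were the higher ones. RN7SK, a small nuclear RNA that holds back transcription elongation, had 5.53 (SE 0.29), from 1.97 and -3.56, and read 1894 and 1935 on ING2-WT etoposide arrays 1 and 2. The kinase gene ABL2 had 5.28 (SE 0.69), from 0.78 and -4.50, the immediate early gene FOS 5.05, the kinase gene PNCK 4.50 and the protease inhibitor SERPINB2 4.45.

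On the other side stood FLJ22447 at -4.02, the clock-associated CIART at -3.94, RAB27A, a GTPase of secretory vesicles, at -3.75, TNFRSF11B, a decoy receptor of bone turnover, at -3.61, HNRNPA1, a splicing factor, at -3.46 and TMEM117 at -3.45. For RAB27A and TMEM117 the difference in the first comparison was small, at -0.28 and -0.18, against 3.47 and 3.27 in the second. ADM, FOS, FLJ22447, CIART, RAB27A and TMEM117 lay under the floor of 16 on some of these arrays, so their values depend on it.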

How the results depend on the processing

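Over all replicates the count of 0 genes between ING2-6K/Rmt etoposide and ING2-WT DMSO became 3166 with array weights and 3471 without the arrays numbered 3. Leaving out single arrays gave 0 to 26, the 26 without ING2-WT DMSO array 3. The difference between both comparisons of the constructs went from 0 to 2764 and 2838 under the same 2 settings and stayed at 0 when single arrays were left out, and their mean went from 0 to 3484 and 3148, with 0 to 256 when single arrays were left out, the 256 again without ING2-WT DMSO array 3. In replicates 1 and 2 the 3471 calls fell to 2164 with no filter on dim probes and to 2228 with no moderation, and ranged from 1001 to 3213 when single arrays were left out, with 1001 without ING2-WT DMSO array 2, 1719 without ING2-WT DMSO array 1 and 1751 without ING2-6K/Rmt etoposide array 2. A lone array was then assumed to vary like the other groups. Other settings gave 2389 to 4757 calls.

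Under a replicate block the counts were 0 over all replicates (1410 genes at an unadjusted p under 0.05) and 3198 in replicates 1 and 2, and with only the 6 arrays and the block, added after seeing the data, 0 (1761 genes). The block changed no count of calls by over 1.5 times. HDAC1 turned from 0.18 to -0.00707 after quantile normalisation. Of 66 named genes called in replicates 1 and 2, 48 were called under every alternative that tested them. Of the rest 11 lost the call under 1 to 3, 7 under 4 or more, and 0 reversed. Some, among them CA9, MMP9, ADM and BATF3, had 21 alternatives and not 22. They were too dim to be tested under the filter of 64 or more on all 6 arrays compared. The cause of these changes was not tested.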

Other observations

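Across the 12 arrays the genes whose log2 level was most like that of the brighter ING2 probe, by Pearson's correlation over all 12 arrays and given as a description, were H3-3B (0.921), which encodes a replacement histone H3, RAVER1 (0.920), an RNA-binding protein, and EIF4H (0.916), a translation initiation factor. The most opposite were ZHX2 (-0.894), a zinc finger and homeobox factor, and LMTK3 (-0.874), a kinase. The 2 arrays in which ING2 was bright weigh heavily in such a correlation, which was not computed without them.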
